A study of Mus musculus with 74 samples.

Results

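The genes described here encode the core and accessory subunits of Polycomb repressive complex 2 (PRC2), and they were taken as a list of names: Ezh1, Ezh2, Eed, Suz12, Rbbp4, Jarid2, Phf1, Mtf2 and Phf19. The 9 genes were all found among the 37620 genes of the RNA-seq tables, and all 9 passed the filter on low counts in every comparison. Their mRNA was measured in 35 libraries of mouse embryonic stem (ES) cells that fall into 12 groups. SunTag cells are E14Tg2a ES cells in which doxycycline (Dox, 1 µg/mL) switches on a dCas9-based transcriptional activator, and a guide RNA brings it to the promoter of an endogenous gene. Nanog SunTag cells carry a guide RNA for Nanog, and Nanog/Otx2 SunTag cells were made from them by adding a guide RNA for Otx2. Each kind was cultured with or without LIF (10 ng/mL) and with or without Dox, and was lysed after 3 days. The Nanog libraries numbered 3 with LIF alone, 2 with LIF and Dox, 3 with neither and 3 with Dox alone, and the Nanog/Otx2 libraries numbered 3, 4, 4 and 4 in the same order. Each kind of SunTag cell was represented by 1 clone from each of the parental clones C1 and C2, picked for good induction of the targeted gene. 44iN cells lack endogenous Nanog and carry a Dox-inducible Nanog transgene. They were profiled in LIF with Dox (2 libraries), 24 h after Dox removal (2) and after long-term culture without Dox (2), beside Tg2a cells, a wild-type line kept in serum with LIF (3). By the paper's methods, the long-term culture without Nanog was under G418 selection.

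PRC2 methylates lysine 27 of histone H3 at silent developmental genes. Its catalytic subunit is Ezh2 or, with weaker activity, Ezh1, and it works only when bound to Eed, which reads the methylated product, and to Suz12, which holds the complex together. Rbbp4 is a histone-binding protein shared with other chromatin complexes. Accessory subunits sort the complex into alternative forms: the Polycomb-like proteins Phf1, Mtf2 and Phf19 help it find and stay at CpG-rich promoters, while Jarid2 belongs to a separate form with Aebp2. In ES cells PRC2 is dispensable for self-renewal but is needed for orderly differentiation.

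Normalised counts are the estimated read counts of a gene divided by a size factor of the library. The libraries summed to between 6107512 and 92244655 estimated counts. Phf1 and Phf19 were the members with the fewest, at 15 to 498 and 35 to 1496 estimated counts per library. Some groups held libraries that differed in how counts depended on GC content. In the Nanog SunTag library of clone C1 with LIF and no Dox, which had 10937367 counts and is called the outlying library here, genes of low GC content were raised over those of high GC content by 0.69 on the log2 scale, where its group mates stood at -0.73 and -0.58. The gap was as wide between the 44iN libraries with Dox (2.36 and 0.77), and the third Tg2a library stood at 0.49 where the others had 1.68 and 1.41. The same contrast lay between 0.49 and 2.68 in the 44iN and Tg2a libraries and between -1.11 and 0.13 in the other SunTag libraries. Since Mtf2 (38.2% GC) and Phf1 (60.0%) lie near the ends of the GC range, tests on the members were made within the SunTag cells and within the 44iN and Tg2a cells, not between them. Calls on the members that changed without one of these libraries are given with and without it. Most groups held several libraries of the same clone, so p-values measure the spread between these libraries only. In bulk RNA, fewer cells of one type and less RNA per cell cannot be told apart.

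The targeted genes followed the labels. The sequences recognised by the guide RNAs, printed because they define the treatment, were found once each in mm9, at chr6:122657269-122657288 on the plus strand for Nanog and at chr14:49282649-49282668 on the minus strand for Otx2, with the PAM in capitals. The first lies 238 bases upstream of the nearest annotated start and in no annotated gene, and the second 121 bases upstream of one and within Otx2 as annotated.
Nanog guide: cttcccactagagatcgccaGGG
Otx2 guide: aatgtagagcgtgcatttggAGG
Without LIF, Dox raised Nanog from 2234 to 8484 normalised counts (3 libraries) to 45041 to 55641 (3) in Nanog SunTag cells, and from 1974 to 6867 (4) to 31697 to 48471 (4) in Nanog/Otx2 cells. Otx2 rose with Dox only where its own guide RNA was present, by 0.85 ± 0.13 (log2, SE, adjusted p = 0.000566) without LIF, and the effect of Dox on Otx2 differed between the guides by 1.57 ± 0.25 (SE, adjusted p = 0.00914). SunTag cells without a guide RNA were not analysed here, so Dox itself and the activated genes cannot be told apart.

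With all libraries and no block, LIF withdrawal without Dox lowered the same 4 PRC2 subunits in both kinds of SunTag cells. In those fits Dox in the absence of LIF raised Phf19 alone of the 9, and the number raised changed with the fit. These counts are given beside the shares of all genes called and are not read as a result about the set. In Nanog SunTag cells without Dox, 4 of 9 members fell (Eed, Mtf2, Ezh2 and Jarid2) and 0 rose after LIF withdrawal, by edgeR's quasi-likelihood test at an adjusted p under 0.05, where 41.5% of 15624 genes were called, 21.3% fell and 20.2% rose. For Nanog/Otx2 cells 4 of 9 fell and 0 rose, where 49.8% of 15609 genes were called, 25.2% fell and 24.6% rose. The median log2 fold change of the 9 members was -0.23 and -0.49 in the Nanog and Nanog/Otx2 cells, and that of all genes tested was -0.05 and -0.01. With Dox present, LIF withdrawal raised 2 of 9 members in Nanog cells (Phf19 and Suz12) and lowered 0, where 32.6% of genes were called, 17.1% rose and 15.5% fell. With both guide RNAs, it lowered 3 (Eed, Mtf2 and Ezh2) and raised 1 (Rbbp4), where 36.5% of genes were called, 17.9% fell and 18.7% rose. Dox in the absence of LIF raised 1 of 9 members in Nanog cells, where 5.14% of genes were called, 3.6% rose and 1.54% fell, and 1 of 9 in Nanog/Otx2 cells, where 17.3% were called, 11.2% rose and 6.15% fell. With the clone and replicate number as a block, 4 were called in Nanog/Otx2 cells (Phf19, Mtf2, Suz12 and Ezh1), all higher, where that fit called 33.4% of genes. Without the outlying library, which also enters the estimate of the spread, 3 were called in Nanog cells (Phf19, Mtf2 and Suz12, at 0.36 with adjusted p = 0.0447), all higher, where 10.2% of genes were. The libraries of the groups compared did not overlap for 4 of 9 members on LIF withdrawal without Dox in either kind of cell, where 51.7% and 48.6% of genes did not, and for 6 and 4 with Dox present, where 63.4% and 37.4% did not. For Dox without LIF it was 4 of 9 members in Nanog cells and 3 of 9 in Nanog/Otx2 cells, against 34.1% and 23.0% of genes. The LIF and Dox comparisons share the libraries with neither, so their values are given side by side and not as an overlap.

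**Figure D1:**
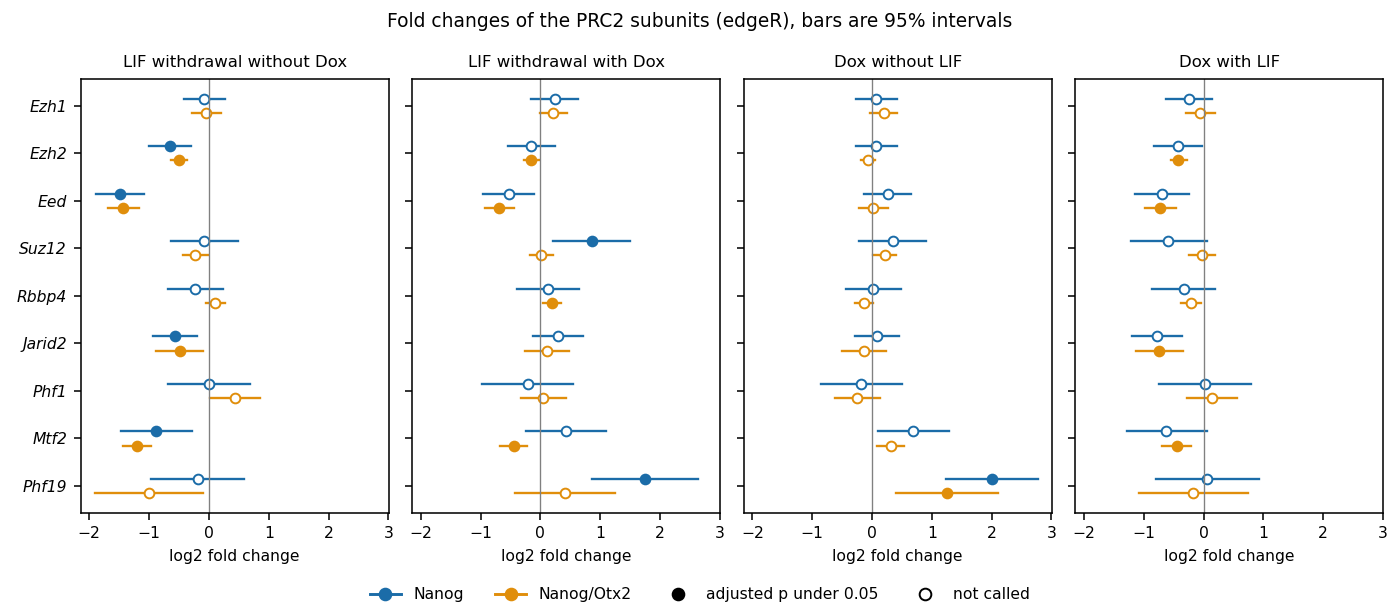
Log2 fold changes of the 9 PRC2 members (vertical axis) in the comparisons of SunTag cells (horizontal axis of each of 4 panels, log2 scale; blue Nanog, orange Nanog/Otx2), with 95% intervals of edgeR's fit as lines; filled points had an adjusted p under 0.05. Eed lies at -1.48 and -1.43 after LIF withdrawal without Dox, and Phf19 at 2.00 and 1.25 with Dox in the absence of LIF.

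Of the catalytic subunits, Ezh2 fell with LIF withdrawal and Ezh1 did not pass the test in any comparison. In Nanog SunTag cells Ezh2 stood at 8649 normalised counts in C1 and at 5976 and 6247 in C2 with LIF, and at 4502 and 4664 in C1 and 4325 in C2 without it. The groups did not overlap, and the log2 fold change was -0.65 ± 0.16 (SE, adjusted p = 0.00717). Without the outlying C1 library it was -0.43 (adjusted p = 0.00471). In Nanog/Otx2 cells Ezh2 went from 5563, 5615 and 4893 with LIF to 3784, 3782, 3972 and 3985 without it, a log2 fold change of -0.50 ± 0.06 (SE, adjusted p = 1.12e-05), again with no overlap. Dox without LIF left Ezh2 at 4466 to 4933 in Nanog cells (log2 fold change 0.07, 95% interval -0.27 to 0.42) and at 3572 to 3686 in Nanog/Otx2 cells (-0.07, -0.19 to 0.05). Ezh1 group means spanned a factor of 1.53 over all 12 groups, from 765 to 1173 normalised counts, and a factor of 1.41 over the 8 SunTag groups, where Rbbp4 spanned 1.34 and the other members 1.61 to 4.05. It was called in none of the 13 comparisons by edgeR's quasi-likelihood test without a block. Its log2 fold change on LIF withdrawal without Dox was -0.08 (95% interval -0.42 to 0.27) in Nanog cells and -0.04 (-0.29 to 0.20) in Nanog/Otx2 cells. With the clone and replicate number as a block, Ezh1 rose in Nanog/Otx2 cells with Dox without LIF (log2 fold change 0.20, adjusted p = 0.0258) and with LIF withdrawal in Dox (0.21, 0.0114). When Dox was present, LIF withdrawal lowered Ezh2 in Nanog/Otx2 cells by 0.15 ± 0.06 on the log2 scale (SE, adjusted p = 0.049), a call lost in 13 of 15 fits without 1 library and when lowly counted genes were kept (adjusted p = 0.219). Per kilobase of exon, Ezh1 amounted to 11.8 ± 0.93 per 100 of Ezh2 in Nanog cells with LIF and 17.3 ± 2.06 without it (SD, n = 3 each), and to 16.3 ± 1.25 (n = 3) and 22.6 ± 2.52 (n = 4) in Nanog/Otx2 cells. The log2 ratio of Ezh1 to Ezh2 rose by 0.51 on average over the guides (exact permutation test within guides, two-sided, p = 0.00286, adjusted over 18 tests 0.00857).

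Eed had the widest range of the core subunits. With LIF and no Dox, Nanog SunTag cells held 12379 normalised counts of Eed in C1 and 7758 and 8400 in C2, against 3144 and 3522 in C1 and 3703 in C2 after LIF withdrawal. All libraries without LIF lay under all libraries with it, and the log2 fold change was -1.48 ± 0.18 (SE, adjusted p = 9.84e-05), or -1.21 (1.03e-05) without the outlying library. For Nanog/Otx2 cells the values were 7853, 9000 and 8268 with LIF and 2710, 2968, 3468 and 3596 without it (-1.43 ± 0.12, SE, adjusted p = 2.35e-07). Dox in the absence of LIF left Eed near its low level, at 3960 to 4125 in Nanog cells (log2 fold change 0.26, 95% interval -0.13 to 0.65) and 2584 to 3537 in Nanog/Otx2 cells (0.02, -0.22 to 0.26). The libraries of Nanog cells did not overlap in that comparison, which holds for 34.1% of genes, and the fold change did not pass the test (adjusted p = 0.509). Eed was also lower without LIF when Dox was present, by a log2 fold change of -0.69 ± 0.11 (SE, adjusted p = 0.000261) in Nanog/Otx2 cells and of -0.53 ± 0.20 (adjusted p = 0.0594, or 0.0348 with the clone as a block) in Nanog cells, where it passed without the outlying library (-0.51, 0.00264).

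Suz12 and Rbbp4 followed neither pattern. Suz12 in Nanog cells with LIF was 11005 in the outlying C1 library and 5488 and 4955 in C2, and 6433, 7319 and 6961 without LIF. The groups overlapped and the fold change was -0.08 ± 0.26 (log2, SE, adjusted p = 0.832), but without the outlying library it turned to 0.42 (adjusted p = 0.0104). With both guide RNAs, Suz12 was 6569 to 7362 with LIF and 5112 to 6843 without it (-0.23 ± 0.10, SE, adjusted p = 0.0719). It passed with the clone and replicate number as a block (-0.27, 0.0128), as it did for Dox in the absence of LIF (0.22, 0.0391). When Dox was present, LIF withdrawal raised Suz12 in Nanog cells from 4497 and 5170 to 8662, 8163 and 8966 (0.86 ± 0.30, SE, adjusted p = 0.0441), while in Nanog/Otx2 cells the log2 fold change was 0.01 (95% interval -0.18 to 0.21). Whether this effect differed between the guides was not tested. Leaving out any of 8 of the 11 libraries in turn ended the call, the outlying library not among them (0.87, adjusted p = 0.000224), and a correction for GC content, chosen after seeing the data, reduced the log2 fold change to 0.43 (adjusted p = 0.0395). Rbbp4 rose by 0.20 ± 0.07 (log2, SE, adjusted p = 0.0394) in Nanog/Otx2 cells on LIF withdrawal with Dox, from 13596 to 14511 normalised counts (4 libraries) to 15768 to 16379 (4), and the call was lost in 8 of 15 fits that left out 1 library. Copies with at least 90% identity over at least 200 bases lie elsewhere in the genome for Suz12, Rbbp4, Jarid2 and Mtf2, so part of their counts could be split, and none was found for Ezh1, Ezh2, Eed, Phf1 and Phf19.

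**Figure D2:**
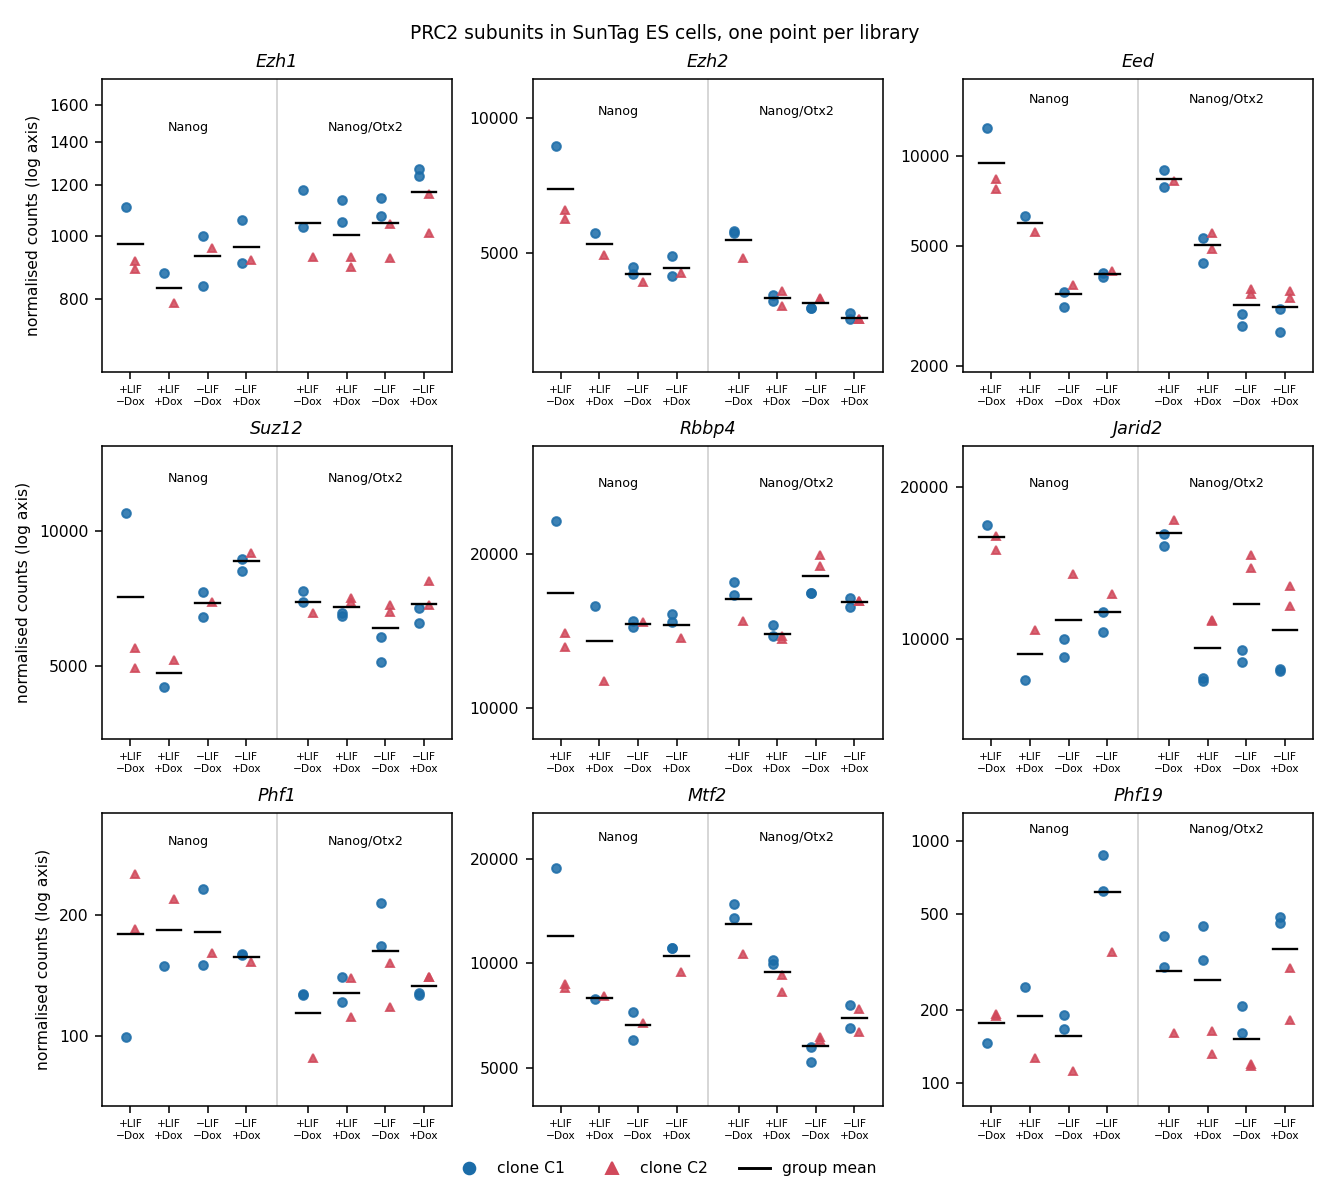
Normalised counts of the 9 members (log axis, 1 panel a gene) in each SunTag library by condition (horizontal axis), with circles for clone C1, triangles for clone C2 and bars for group means. Eed and Ezh2 are lower in the SunTag groups without LIF than in those with LIF alone, and Phf19 is highest in the groups with Dox and without LIF, with means of 616 and 357.

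Jarid2, the subunit of the Aebp2-containing form of PRC2, was high in SunTag cells with LIF alone and lower in the other conditions. It went from 16835, 16015 and 14997 normalised counts to 9228, 10000 and 13474 in Nanog cells on LIF withdrawal, the C2 library being the highest without LIF. The groups did not overlap (log2 fold change -0.57 ± 0.17, SE, adjusted p = 0.0184, and -0.50 with adjusted p = 0.0273 without the outlying library). In Nanog/Otx2 cells it went from 15303, 16108 and 17193 to 9048 and 9550 in C1 and 13808 and 14662 in C2 (-0.49 ± 0.18, SE, adjusted p = 0.0365). The within-clone differences were -0.76 in C1 and -0.27 in C2, on the log2 scale. The call was lost in 2 of 11 and 5 of 15 fits without 1 library. Dox without LIF moved Jarid2 by 0.08 (95% interval -0.28 to 0.45) and -0.14 (-0.50 to 0.23) on the log2 scale.

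The Polycomb-like subunits Mtf2, Phf1 and Phf19 differed in level and in response. Per kilobase of exon, Mtf2 made up 91.3% to 99.2% of the summed Polycomb-like mRNA as group means, and it fell on LIF withdrawal. In Nanog cells it was 18864 in the outlying C1 library and 8733 and 8502 in C2 with LIF, and 6006, 7228 and 6727 without it. The fold change was -0.88 ± 0.27 (log2, SE, adjusted p = 0.0214), and it was -0.36 (adjusted p = 0.0205) without that library, with no overlap either way. For Nanog/Otx2 cells Mtf2 was 13484, 14838 and 10638 with LIF and 5186 to 6127 without it (-1.20 ± 0.11, SE, adjusted p = 5.96e-07). Dox without LIF gave 11081, 11055 and 9424 in Nanog cells, above all libraries with neither (0.69 ± 0.27, SE, adjusted p = 0.185). That difference passed without the outlying library (0.70, adjusted p = 0.00223) and after correction for GC content (0.50, 0.0411). On LIF withdrawal with Dox, Mtf2 passed in Nanog cells without the outlying library (0.44, adjusted p = 0.00976). With both guide RNAs, Dox without LIF gave Mtf2 at 6345 to 7612 (0.31 ± 0.10, SE, adjusted p = 0.0550). This difference passed with the clone and replicate number as a block (0.31, 0.0261) and after correction for GC content (0.37, 0.0188). Phf1 was scarce, at 36 to 253 normalised counts over the 35 libraries, and was called in none of the 13 comparisons. Its intervals were wide, for example -0.69 to 0.68 for LIF withdrawal without Dox in Nanog cells.

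Phf19 rose with Dox when LIF was absent. In mm9 the gene (ENSMUSG00000026873) spans chr2:34749277-34769546. The promoter of Phf19 is printed because it was this member that rose, with those of Eed, which fell most, and of Suz12, which holds the same E2F letters. They are the 250 bases before the RefSeq start in GRCm38.p6, 5′ to 3′ on the strand of the gene, at chr2:34913977-34914226 (minus), chr7:89980977-89981226 (minus) and chr11:79992856-79993105 (plus), and capitals mark TTTCCCGC on either strand, a form of the E2F motif.
Phf19 promoter: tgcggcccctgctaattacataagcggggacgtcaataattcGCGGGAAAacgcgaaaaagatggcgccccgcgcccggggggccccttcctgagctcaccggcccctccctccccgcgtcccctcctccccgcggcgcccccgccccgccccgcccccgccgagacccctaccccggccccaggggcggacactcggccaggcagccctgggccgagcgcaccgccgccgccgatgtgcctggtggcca
Eed promoter: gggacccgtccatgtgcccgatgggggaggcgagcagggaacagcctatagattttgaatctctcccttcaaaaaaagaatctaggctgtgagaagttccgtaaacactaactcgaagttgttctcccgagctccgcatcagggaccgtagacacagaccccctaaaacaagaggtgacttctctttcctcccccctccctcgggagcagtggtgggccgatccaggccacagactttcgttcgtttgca
Suz12 promoter: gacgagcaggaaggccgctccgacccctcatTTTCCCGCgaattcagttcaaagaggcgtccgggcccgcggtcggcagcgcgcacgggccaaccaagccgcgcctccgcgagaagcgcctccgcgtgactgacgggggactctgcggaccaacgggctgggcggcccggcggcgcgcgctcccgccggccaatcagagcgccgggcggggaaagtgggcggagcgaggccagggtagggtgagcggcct
In windows that run 50 bases past the start, TTTCCCGC was found for Phf19 and Suz12 and in 1.07% of 32851 windows, and another E2F form, TTTGGCGC, for Ezh2 and in 0.514%. TTTCGCGC was found in no window of the members and in 0.323% of all. CCAAT was held by 7 of 11 windows of the members and by 37.4% of all. The STAT letters TTCNNNGAA (8.3% of all windows), the octamer ATGCAAAT bound by Pou5f1 (1.74%) and the Esrrb letters TCAAGGTCA (0.423%) were in none of the 11. All were searched on both strands, and a match is a description of the letters only.

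Phf19 in Nanog SunTag cells without LIF was 168 and 191 normalised counts in C1 and 112 in C2 without Dox, and 625 and 874 in C1 and 350 in C2 with Dox. The lowest library with Dox was above the highest without it, and the log2 fold change was 2.00 ± 0.35 (SE, 95% interval 1.23 to 2.77, adjusted p = 0.00789). It was called in all 11 fits without 1 library, with adjusted p-values of 0.00344 to 0.0424. In Nanog/Otx2 cells Phf19 was 209 and 161 in C1 and 120 and 118 in C2 without Dox, and 485 and 460 in C1 and 299 and 182 in C2 with it. Here the groups overlapped, because the lowest C2 library with Dox lay under the highest C1 library without it, while within each clone they did not. The log2 fold change was 1.25 ± 0.40 (SE, 95% interval 0.40 to 2.10, adjusted p = 0.0433), and the adjusted p was 7.24e-05 with the clone and replicate number as a block. The call was lost in 8 of 15 fits that left out 1 library, with adjusted p-values between 0.0222 and 0.12 over the 15. Within clones, Phf19 was higher with Dox by 2.04 (C1) and 1.64 (C2) in Nanog cells and by 1.36 and 0.97 in Nanog/Otx2 cells, on the log2 scale. The guides did not differ in this effect beyond the error (-0.79 ± 0.57, SE, 95% interval -1.98 to 0.40, adjusted p = 0.901), and 0 of 9 members differed between them where 0.0308% of genes did, all of them higher (0.0308%). No member had an unadjusted p under 0.05 there, and DESeq2 called 0. Phf19 was listed with earlier results of these libraries in view, so its rise here is not independent evidence.

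**Figure D3:**
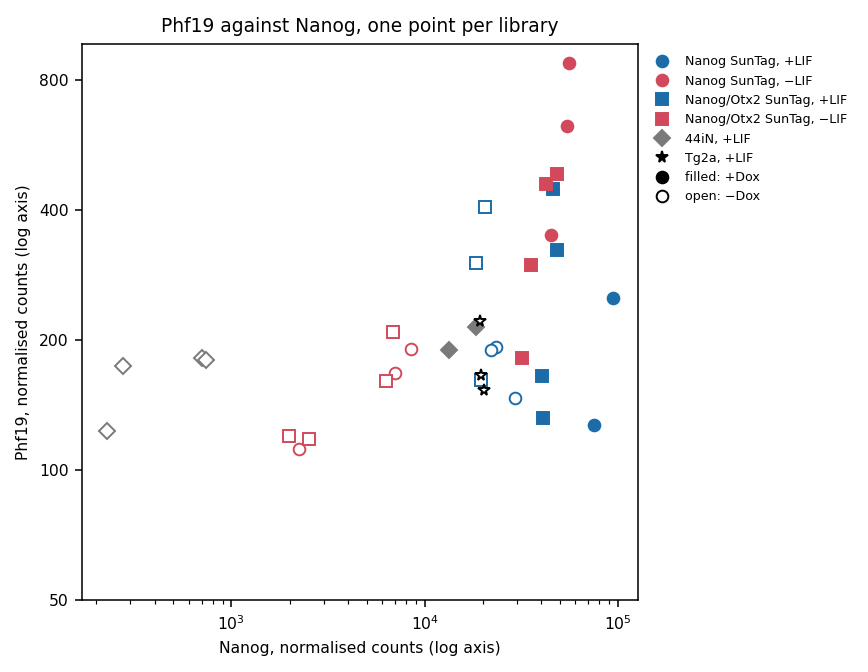
Normalised counts of Phf19 (vertical, log axis) against those of Nanog (horizontal, log axis) in each of the 35 libraries, marked by group. With LIF and Dox, Nanog reached 40628 to 93813 with Phf19 at 127 to 447, and without LIF and with Dox, Nanog reached 31697 to 55641 with Phf19 at 182 to 874.

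With LIF present, Dox did not move Phf19 detectably. In Nanog cells it was 147 in C1 and 193 and 190 in C2 without Dox, and 250 in C1 and 127 in C2 with it. The log2 fold change was 0.06 (95% interval -0.80 to 0.92, and -0.47 to 0.44 over the fits without 1 library). The clones moved in opposite directions, by 0.76 in C1 and -0.58 in C2. Nanog was at 75226 and 93813 in those Dox libraries, above any library without LIF and above the 21940 to 29487 with LIF alone. Even so, Nanog itself was not called in this comparison, so a change of Phf19 could also be missed. For Nanog/Otx2 cells Phf19 was 406 and 301 in C1 and 162 in C2 without Dox, and 447 and 324 in C1 and 165 and 132 in C2 with it (-0.17, -1.08 to 0.74). The C1 libraries lay above the C2 libraries in both conditions. The interaction, which tests whether the effect of Dox depends on LIF, was 1.94 ± 0.53 (SE, adjusted p = 0.0959) in Nanog cells, where no fit without 1 library called it (1.56 to 2.48), and 1.42 ± 0.58 (adjusted p = 0.154) in Nanog/Otx2 cells. With the clone as a block it passed in Nanog cells (2.12, adjusted p = 0.0169). In Nanog/Otx2 cells it passed with the clone and replicate number as a block (1.19, 0.00244).

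LIF withdrawal without Dox gave Phf19 a log2 fold change of -0.19 ± 0.35 (SE, adjusted p = 0.685) in Nanog cells and -1.0 ± 0.43 (adjusted p = 0.0636) in Nanog/Otx2 cells. Within clones it was 0.28 in C1 and -0.77 in C2 in Nanog cells, and -0.93 and -0.44 in Nanog/Otx2 cells. With the clone as a block, Nanog cells gave -0.49 (adjusted p = 0.191). The fold change in Nanog/Otx2 cells passed with the clone and replicate number as a block (-0.72, 0.00251) and after correction for GC content (-1.02, 0.0484). With Dox present, LIF withdrawal raised Phf19 in Nanog cells from 250 and 127 to 625, 874 and 350 (1.75 ± 0.41, SE, adjusted p = 0.0081). Without the C2 library with LIF and Dox the call ended (1.37, adjusted p = 0.0602). With both guide RNAs, the log2 fold change was 0.41 ± 0.39 (SE, adjusted p = 0.440), and 0.47 (0.0175) with the clone and replicate number as a block.

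Whether Phf19 stood apart from its partners was tested on the log2 ratio of Phf19 to each other member in each library, permuting labels within each guide. With Dox in the absence of LIF, Phf19 rose relative to all 8 other members. The mean differences over the guides ran from 1.07 against Mtf2 to 1.76 against Phf1, with adjusted p-values of 0.00857 to 0.0143 (exact permutation test, two-sided, Benjamini-Hochberg over 18 tests, smallest possible p = 0.000714). The ratio to Ezh2 went from -4.88 ± 0.35 to -3.01 ± 0.67 in Nanog cells (SD, n = 3 each) and from -4.71 ± 0.43 to -3.44 ± 0.65 in Nanog/Otx2 cells (n = 4 each). These ratios share Phf19 and are not independent of each other. They reuse the libraries whose earlier results were in view when Phf19 was listed, so they are not independent evidence of its rise. After LIF withdrawal without Dox the picture was mixed. Phf19 rose relative to Eed by 0.88 (adjusted p = 0.0468) and fell relative to Phf1 by 0.83 (0.0283), with the same sign in both kinds of cells. In Nanog cells with LIF the log2 ratio to Eed was -6.39 in the outlying C1 library and -5.33 and -5.47 in C2. Without LIF it was -4.23 and -4.20 in C1 and -5.05 in C2. The ratio of Phf19 to Ezh2 moved in opposite directions, by 0.41 in Nanog and -0.41 in Nanog/Otx2 cells, as did its ratio to Jarid2, by 0.37 and -0.38 (adjusted p = 0.991 for each mean over the guides). The clones of Nanog cells differed here. In C1 the ratio to Ezh2 went from -5.88 in the outlying library to -4.75 and -4.61 without LIF. In C2 it went from -4.95 and -5.04 to -5.27, and the ratio to Jarid2 likewise rose in C1 and fell in C2. The ratios of Phf19 to Ezh1, Suz12, Rbbp4 and Mtf2 had adjusted p-values of 0.114 to 0.259. In either guide alone 0 of 18 ratios passed, where 3 against 3 libraries cannot give a p below 0.1 and the smallest p in Nanog/Otx2 cells was 0.0286. Leaving out any 1 of the 20 libraries used kept the same 8 Phf19 ratios past the threshold for Dox without LIF. The calls for LIF withdrawal did not all hold. Of the 18 ratios, 11 passed with all libraries, 10 without the outlying library and 9 to 11 over the 20 fits.

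As a share of the Polycomb-like mRNA per kilobase, Phf19 went with Dox from 2.28% ± 0.56 to 5.48% ± 1.90 in Nanog cells without LIF (SD, n = 3 each) and from 2.56% ± 0.89 to 4.85% ± 1.86 in Nanog/Otx2 cells (n = 4 each). Mtf2 made up 91.3% to 92.2% as means of these 4 groups, so Phf19 remained a small part of the pool. These shares take the summed exon length of each gene as its length, which only approximates the transcripts in use, and they move with the GC trend of a library, since the 3 genes differ in GC content.

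**Figure D4:**
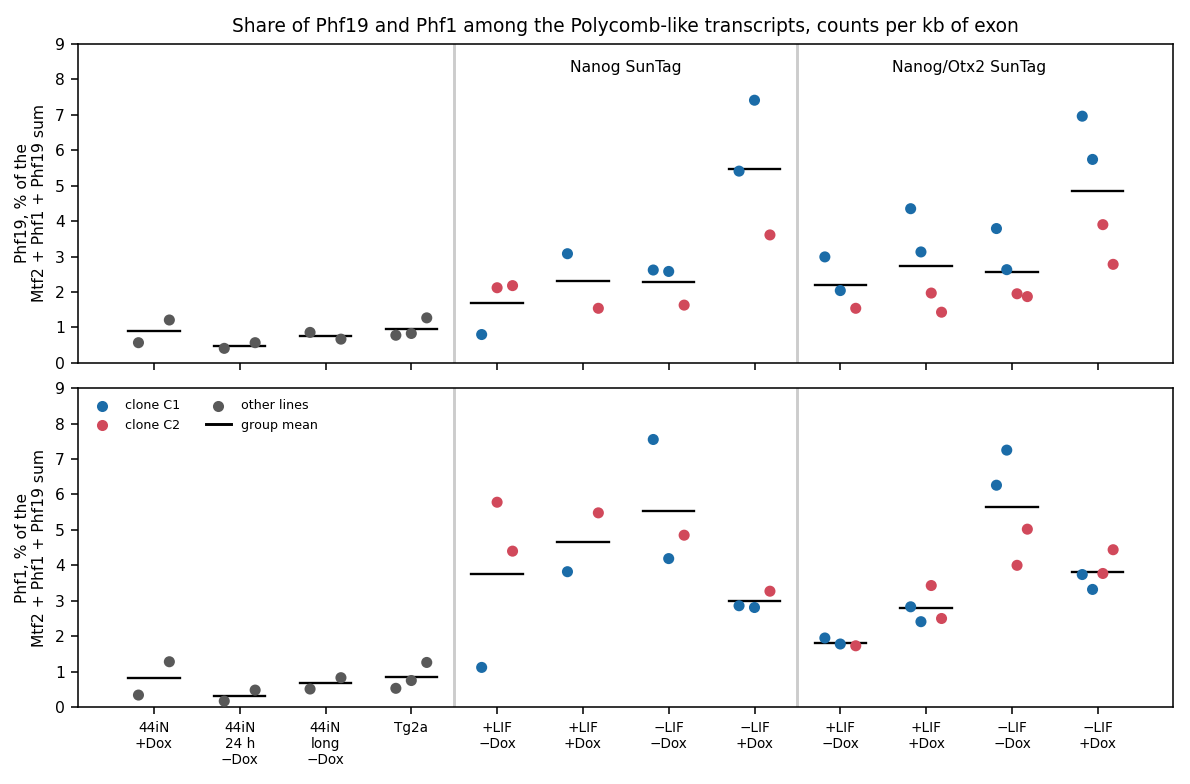
Shares of Phf19 (upper panel) and Phf1 (lower panel) in the summed level per kilobase of Mtf2, Phf1 and Phf19 (vertical axis, percent) in each library by group (horizontal axis), with bars for group means. Phf19 rises from 2.28% to 5.48% and from 2.56% to 4.85% with Dox in the absence of LIF, in Nanog and Nanog/Otx2 cells.

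Dox in the presence of LIF lowered 4 of 9 members in Nanog/Otx2 cells, where 22.9% of genes were called, 10.0% fell and 12.9% rose, and called 0 of 9 in Nanog cells, where 0.563% of genes were called, 0.141% fell and 0.422% rose. Libraries did not overlap for 5 of 9 members in each, against 31.9% of genes in Nanog/Otx2 and 25.8% in Nanog cells. In Nanog/Otx2 cells Ezh2 fell to 3826 to 4124 (log2 fold change -0.42 ± 0.06, SE, adjusted p = 0.000446) and Eed to 4397 to 5524 (-0.72 ± 0.12, 0.000926), and no library overlapped those with LIF alone. Jarid2 fell to 8267 to 10908 (-0.74 ± 0.18, SE, adjusted p = 0.0104) and Mtf2 to 8278 to 10222 (-0.45 ± 0.11, 0.0103), although Mtf2 did not pass after correction for GC content (-0.28, 0.0704). In Nanog cells, with 2 libraries in Dox, Eed was 6330 and 5591 (-0.69 ± 0.20, adjusted p = 0.156) and Jarid2 was 8303 and 10444 (-0.78 ± 0.19, 0.104), each under all libraries without Dox. Without the outlying library these were -0.43 (0.0933) and -0.71 (0.089), and 0 members were called where 0.9% of genes were. Over the fits without 1 library the log2 fold changes ran from -0.79 to -0.10 for Suz12, from -0.82 to -0.10 for Mtf2 and from -0.53 to -0.21 for Ezh2, and none was called. Jarid2 passed there once clones were blocked (-0.76, adjusted p = 0.0423), where 1.88% of genes were called, and DESeq2 called Eed and Jarid2 and 3.76% of genes. At an unadjusted p under 0.05, 3 of 9 members and 14.3% of genes differed. The interaction of LIF and Dox was called for 3 of 9 members in Nanog/Otx2 cells, where 9.7% of genes were called, 5.15% positive and 4.55% negative, namely Ezh2 (0.35 ± 0.09, SE, adjusted p = 0.0184), Eed (0.74 ± 0.16, 0.0109) and Mtf2 (0.76 ± 0.15, 0.00591). With the clone and replicate number as a block it was called for 5, with Phf19 and Jarid2 added, where 21.8% of genes were called. In Nanog cells it was called for 0 of 9, where 1.93% of genes were called, 1.32% positive and 0.608% negative, and 5 members had an unadjusted p under 0.05, as did 15.2% of genes. With the clone as a block it was called for Phf19 and Jarid2 (4.54% of genes), DESeq2 called Eed, Jarid2, Mtf2 and Phf19 (5.6%), and without the outlying library Eed (0.70, adjusted p = 0.0314) and Mtf2 (0.80, 0.0244) were called (3.05%).

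Cells without Nanog gave no called change of Phf19. In 44iN cells Phf19 was 190 and 215 normalised counts with Dox and 182 and 180 at 24 h after its removal (log2 fold change 0.26, 95% interval -0.64 to 1.15), while Nanog went from 706 and 739 without Dox to 13366 and 18394 with it. None of 9 members was called, but 0.0% of 14376 genes were called by edgeR's quasi-likelihood test in these 4 libraries, 1023 genes (7.12%) had an unadjusted p under 0.05 and DESeq2 called 141 genes and 0 members. Of the members, 1 (Jarid2) had an unadjusted p under 0.05. Eed was 16618 and 10634 with Dox against 25541 and 20406 without it, and Jarid2 was 20656 and 15766 against 34218 and 28815. Neither pair of groups overlapped, which holds for 37.5% of genes there, and the log2 fold changes were -0.66 (adjusted p = 0.751) and -0.70 (0.647). Without the first library with Dox, 4 members were called (Eed, Jarid2, Mtf2 and Suz12, each lower with Dox, at log2 fold changes of -1.04 to -0.90), where 22.6% of genes were, and that library had the second highest GC contrast of all (2.36). Without the second, 0 members and 2.47% of genes were called. Long-term 44iN cells without Dox held Phf19 at 174 and 123 against 166, 153 and 221 in Tg2a cells (-0.35, 95% interval -1.01 to 0.31), with Nanog at 276 and 228 against 19420 to 20261. Jarid2 was higher in them, at 29207 and 26259 against 18818, 16279 and 16514 (0.61 ± 0.15, SE, adjusted p = 0.0468), the 1 member called of 9 where 8.61% of genes were called, 3.35% higher and 5.26% lower. Libraries did not overlap for 5 of 9 members, against 48.3% of genes. The call was lost in 3 of 5 fits that left out 1 library, namely without either long-term library or the second Tg2a library, and it held without the third (0.57, adjusted p = 0.0271), where 17.4% of genes were called. In the same comparison 5 of 8 ES cell markers were lower and 0 were higher. The cell line, the G418 selection of the long-term cells and the loss of Nanog go together in that comparison and cannot be told apart.

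Over the 12 groups, the ratio of the highest to the lowest group mean was 7.31 for Eed, 6.89 for Mtf2, 4.98 for Suz12, 4.13 for Phf19, 3.36 for Jarid2, 3.35 for Phf1, 3.11 for Ezh2, 2.5 for Rbbp4 and 1.53 for Ezh1. For Ezh2, Eed, Suz12, Rbbp4, Jarid2 and Mtf2 the highest group was the 44iN cells 24 h after Dox removal, whose libraries also had GC contrasts of 2.68 and 1.98, and the 3 44iN groups and the Tg2a cells took the first 4 places. The same group was the lowest for Ezh1 and Phf1. Over the 8 SunTag groups alone the ratio was 4.05 for Phf19, 3.03 for Eed and 2.25 for Mtf2, and 1.34 to 1.93 for the other 6 members. Ordered by mean, Phf19 was 616 in Nanog and 357 in Nanog/Otx2 cells with Dox and no LIF, 290 and 267 in Nanog/Otx2 cells with LIF without and with Dox, and 149 to 202 in the other 8 groups, with the long-term 44iN cells lowest. All 11 pairs of neighbours in this order overlapped. Genes whose log2 group means were most like those of Phf19 over the 12 groups, among 11291 genes, were Gpr116 (Pearson's r 0.853), Kndc1 (0.844), Etv5 (0.818), Slc10a3 (0.786) and Col14a1 (0.785), and r was 0.539 for Nanog and -0.37 to 0.24 for the other members. For Ezh1 they were Ttc5 (0.896), Uckl1 (0.883), Insig1 (0.868), Dclk2 (0.853) and Paox (0.851). These are descriptions over group means that differ also in library series and GC trend.

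Other genes of the PRC2 pathway were counted by identifiers, 7 in all, with AU022751 (Ezhip) listed under 2 of them and Epop under its older name E130012A19Rik. On LIF withdrawal without Dox 2 of 7 fell in each kind of SunTag cell, namely Epop, an accessory subunit alternative to Jarid2, and Rbbp7, a homologue of Rbbp4. Epop had log2 fold changes of -2.02 ± 0.22 (SE, adjusted p = 3.66e-05) and -1.83 ± 0.20 (3.45e-06). Rbbp7 had -0.50 ± 0.18 (adjusted p = 0.0419) and -0.30 ± 0.09 (0.0134). In Nanog cells the Rbbp7 call held in 4 of 11 fits without 1 library. Of all genes, 21.3% and 25.2% fell and 20.2% and 24.6% rose in these comparisons. In Nanog cells 1 rose, Lcor (1.69 ± 0.29, SE, adjusted p = 0.000876), whose locus encodes a PRC2 accessory protein, and in Nanog/Otx2 cells 1 rose, an identifier of AU022751. With Dox in the absence of LIF 0 of 7 were called in Nanog cells. For Nanog/Otx2 cells 2 rose, Epop (0.83 ± 0.19, SE, adjusted p = 0.00719) and Lcor (0.52 ± 0.16, 0.0415), and Rbbp7 fell (-0.29 ± 0.08, 0.028), where 11.2% of all genes rose and 6.15% fell. On LIF withdrawal with Dox, Lcor, Lcorl and an identifier of AU022751 rose in Nanog cells (17.1% of genes rose). Epop and the other identifier fell (15.5%). In Nanog/Otx2 cells Lcorl rose (18.7%) and Epop fell (17.9%). With Dox and LIF, an identifier of AU022751 rose (12.9%) and Rbbp7 fell (10.0%) in Nanog/Otx2 cells. The interaction there was positive for Epop (5.15%) and negative for an identifier of AU022751 (4.55%). Of the demethylases of the same histone mark, Kdm6a rose on LIF withdrawal in Nanog cells without Dox (0.72 ± 0.25, SE, adjusted p = 0.0353) and with it (1.64 ± 0.29, 0.00202), and Kdm6b rose in Nanog/Otx2 cells without Dox (0.81 ± 0.15, 0.000347). Kdm6a was also called higher on LIF withdrawal with Dox in Nanog/Otx2 cells. For Kdm6a without Dox the groups overlapped, and the call held in 7 of 11 fits without 1 library. With Dox in the absence of LIF 0 of 2 were called in either. Kdm6a fell and Kdm6b rose with Dox and LIF in Nanog/Otx2 cells, by -0.34 ± 0.08 (adjusted p = 0.00768) and 0.51 ± 0.15 (0.023) on the log2 scale.

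Markers of cell state moved in the same libraries as the members. On LIF withdrawal without Dox, 8 of 8 ES cell markers fell in Nanog cells and 7 of 8 in Nanog/Otx2 cells, and their summed normalised counts went from 121155 to 134204 down to 34040 to 37902, and from 129705 to 143621 down to 50408 to 58344. All 4 formative or primed epiblast markers rose in each, from sums of 3647 to 7176 to sums of 71205 to 84585 in Nanog cells and from 4555 to 12092 to 88542 to 100878 in Nanog/Otx2 cells, where of all listed identifiers a second one of Pou3f1 was at 0 in the Nanog libraries with LIF. With Dox in the absence of LIF, 6 of 8 and 7 of 8 ES cell markers rose, to sums of 93896 to 105384 and 98498 to 108302. In that comparison the formative or primed markers Dnmt3b, Fgf5 and Pou3f1 fell in Nanog cells, as did Nes (neural) and Mixl1 (mesendoderm). In Nanog/Otx2 cells Dnmt3b and Pou3f1 fell, and Tubb3 (neural), Eomes (mesendoderm), Pdgfrb and Thy1 (fibroblast) rose beside the targeted Otx2. Of 12 proliferation genes, 3 and 2 changed on LIF withdrawal without Dox and 0 and 1 with Dox in the absence of LIF, and their median log2 fold changes lay between -0.07 and 0.03 in these comparisons. Fibroblast markers were low throughout, with sums of 106 to 1143, and 4 of 4 rose with Dox and LIF in Nanog/Otx2 cells, from 289 to 481 up to 911 to 1143, and 4 of 12 proliferation genes fell in that comparison. Trophoblast markers summed to 106 to 3335 and 2 of 4 (Krt8 and Krt18) rose on LIF withdrawal without Dox in each kind of cell, neural markers summed to 500 to 4614, mesendoderm markers to 86.1 to 688 and primitive endoderm markers to 82.4 to 9105. On LIF withdrawal without Dox, Nes, Eomes and Mixl1 rose and Tubb3 fell in both kinds of cells. Gata4, Gata6 and Sox17, of the primitive endoderm, fell in Nanog cells, and an identifier of Dab2 rose in Nanog/Otx2 cells. The part of cell state in the changes of the PRC2 members was not tested.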

How the data were processed

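RNA was sequenced from 35 libraries. The authors aligned 65-base reads to mm9 with STAR and deposited estimated counts per gene from RSEM (strand-specific), together with a normalised signal, which is these counts divided by DESeq2 size factors. CASAVA 1.8 is named in the submitters' processing notes. All 35 columns matched a sample and 0 belonged to none.

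Estimated counts, whole numbers as deposited, were tested with edgeR 4.0.16 in R 4.3.3 (quasi-likelihood test, TMM, LIF, Dox and their interaction), keeping any gene whose normalised count was 10 or more throughout all libraries of some condition. P-values were adjusted over all genes by Benjamini-Hochberg, with calls under 0.05. Ratios were tested by an exact permutation coded with numpy 2.4.6, copies were searched with minimap2 2.31-r1302, and figures were drawn with matplotlib 3.10.9. The code was tested on simulated data. DESeq2 1.42.0, other size factors, no filter, each library left out and a block were alternatives, and a GC correction was added after seeing the data. The block was the clone in Nanog cells and the clone with the replicate number in Nanog/Otx2 cells. For the C2 library of Nanog/Otx2 cells with LIF alone, the number in the sample title differs from that in the column name. It also differs for the C1 library of Nanog cells with LIF and Dox and for the C2 library with Dox alone. Both C1 libraries of Nanog cells with Dox alone share a sample title and are told apart by their column names. The titles do not say whether they are separate cultures. The clones are cell lines shared by the conditions, so the clone pairs the libraries. The main fits and the ratio tests held no term for this pairing, which entered only the fits with a block. Deviations from group means correlated at a mean r of 0.22 within clones and -0.21 between them in Nanog cells, and at 0.31 and -0.31 in Nanog/Otx2 cells. In the latter, libraries sharing clone and number correlated at 0.41 and the others at -0.14. All 9 members were named, and from the other lists those called. The members and lists were chosen with earlier results of these data known. Tg2a libraries in 2i (3) were not analysed here. Depth ran from 6107512 to 92244655 counts, and intervals cover the spread between libraries only.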

Additional observations from a re-analysis of the deposited data

Results flagged for a closer look

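Of 27 groups of 4 libraries examined over the members, 1 held a library far from the others, and chance gives about 1 in 20. It was the first C1 library of Ezh2 in Nanog/Otx2 cells with Dox and no LIF, at 3686 normalised counts beside 3572 to 3580. The effect of Dox differed with and without LIF in Nanog/Otx2 cells for Ezh2 (interaction 0.35 on the log2 scale, adjusted p = 0.0184), Eed (0.74, 0.0109) and Mtf2 (0.76, 0.00591), by edgeR's quasi-likelihood test. For Ezh2 and Eed the fold change with Dox was negative with LIF (-0.42 and -0.72) and near 0 without it (-0.07 and 0.02).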

How the results depend on the processing

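Counts of members called depended on the alternative, and so did the share of all genes called, given in parentheses. LIF withdrawal with Dox in Nanog cells called 2 (32.6%), and 4 with only the compared conditions (37.7%), with the GC correction (39.4%) and with that and the block (48.1%). Leaving out 1 library gave 0 to 4 there, 2 to 5 for LIF withdrawal without Dox, 1 to 3 for Dox without LIF and 0 to 2 for the interaction. Dox without LIF called 1 (5.14%), and 3 with only the compared conditions (13.3%) and 2 with the GC correction, without (7.09%) or with the block (13.1%). Dox with LIF called 0 (0.563%), and 2 by DESeq2 (3.76%) and 2 with GC correction and block (4.97%). The interaction called 0 (1.93%), and 4 by DESeq2 (5.6%), 1 without the filter (1.71%), 1 with the GC correction (3.14%) and 4 with the block added (7.37%). In Nanog/Otx2 cells LIF withdrawal without Dox called 4 (49.8%), and 7 with the GC correction, without (50.5%) or with the block (62.3%). With Dox it called 4 (36.5%), 2 without the filter (19.4%) and 2 to 4 without 1 library. Dox without LIF called 1 (17.3%), 2 by DESeq2 (21.3%), 2 with only the compared conditions (14.9%), 3 with the GC correction (18.4%), 4 with the block added (35.6%) and 0 to 2 without 1 library. The interaction called 3 (9.7%), and 5 with GC correction and block (22.6%). 44iN cells gave 0 to 4 and long-term cells 0 to 2 without 1 library, and the latter 2 by DESeq2 (15.4%), without the filter (7.05%) and with the GC correction (21.1%). GC correction with the block gave 2 in 44iN cells (12.5%). The ratio tests called 11 of 18, 0 in each guide alone and 9 to 11 without 1 library. Suz12 on LIF withdrawal in Nanog cells ranged from -0.28 to 0.42 without 1 library, positive without the outlying one. The cause of these shifts was not tested.

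With the clone as a replicate block, Nanog cells gave 4 for LIF withdrawal without Dox (46.3%), 3 with Dox (40.1%), 1 for Dox without LIF (8.8%), 1 for Dox with LIF (1.88%) and 2 for the interaction (4.54%). With the clone and replicate number as the block, Nanog/Otx2 cells gave 6 (61.8%), 6 (51.9%), 4 (33.4%), 5 (41.0%) and 5 (21.8%) in that order. The guide difference, with the block of each kind of cell, gave 0. In 44iN cells, whose libraries share only a number (r of 0.65 within and -0.65 between numbers), the block called 2 (13.3%), Eed (-0.68) and Jarid2 (-0.70). Rbbp4 with Dox and LIF in Nanog/Otx2 cells passed (-0.22, adjusted p = 0.0359). Beyond the 16 member fold changes that newly passed with the block, it changed no other call, of 108. No paired analysis was possible for the long-term comparison because its libraries come from different cell lines.

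Phf1 and Phf19, the members with the fewest counts, had the widest intervals in the SunTag and long-term comparisons, and the part of depth in this was not tested.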
